A study of Mus musculus with 4 samples.

Results

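The genes described here are the cytosolic ribosomal protein genes of mouse regulatory T (Treg) cells, the CD4+ T cells that restrain immune responses. Members were all genes whose symbol is Rps or Rpl followed by a number and an optional suffix such as a, x or l, together with Rpsa, Rplp0, Rplp1 and Rplp2, and without the ribosomal S6 kinases. The rule used no measured value and found 83 of the 22056 genes in the expression tables, 32 of the small subunit and 51 of the large subunit. Single-cell RNA-seq (10x Genomics 3' chemistry) had been run on Treg cells of C57BL/6 mice, sorted as live, CD4+, TCRβ+ and YFP+ to a purity above 95%. The study compared ICOS-deficient Treg cells, called ICOS FC, with ICOS WT cells, in inflammation and at steady state; ICOS is a costimulatory receptor of activated T cells. There were 4 groups of 1 library each: ICOS FC and ICOS WT cells from cervical draining lymph nodes (LN) on day 1 after challenge with the contact sensitizer oxazolone, and ICOS FC and ICOS WT cells from spleens at steady state. The labels mention 12000 prepared cells, without saying whether that is per library; age, the promoter behind YFP, the deleted stretch of Icos and any pooling of mice are absent from the labels. With 1 library per group there is no replicate error and no test between groups. Each ratio therefore carries an exact conditional Poisson interval at 95%, which covers counting error alone and not the variation between mice or libraries.

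The libraries held 2066 cells for LN ICOS FC, 1897 for LN ICOS WT, 5917 for spleen ICOS FC and 4995 for spleen ICOS WT. Median depth per cell was 6789, 6591, 4361 and 5044 UMIs (unique molecular identifiers, each standing for 1 captured RNA molecule) in that order. The targeted gene went against its labels. Icos was at 928 CPM (UMIs per 1000000 UMIs of the library) in the LN library labelled ICOS FC, against 599 CPM in the one labelled ICOS WT, and at 258 CPM in the spleen library labelled ICOS FC, against 112 CPM in the one labelled ICOS WT. A 3' tag outside the deleted stretch would check nothing, and the labels do not place the deletion, so ICOS FC and ICOS WT below mean the libraries labelled so and every direction between them rests on those labels. All 6 Treg markers were detected in every library, with a summed level of 3653 and 2979 CPM in LN ICOS FC and ICOS WT and of 2091 and 1814 CPM in spleen ICOS FC and ICOS WT. Cells with at least 1 Foxp3 UMI were 38.9% and 37.3% of the LN cells in ICOS FC and ICOS WT, and 21.8% and 20.8% of the spleen cells. The LN pair shared 30 cell barcodes, the spleen pair 8, and libraries of different tissues 1 to 10. Summed markers of other cells also moved with tissue. B cell genes were at 207 and 172 CPM in LN ICOS FC and ICOS WT, against 79.1 and 77.0 CPM in the spleen libraries, and CD8 T and NK genes at 125 and 194 CPM, against 255 and 212 CPM. Their part in the results was not tested.

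Each cytosolic ribosome joins a small subunit, which reads the mRNA and whose proteins are named Rps, with a large subunit, which forms the peptide bonds and whose proteins are named Rpl. The mRNAs of these proteins are the classic TOP mRNAs: they begin with a 5' terminal oligopyrimidine tract, through which mTOR signalling and the RNA-binding protein Larp1 set how strongly they are translated. T cells that leave quiescence enlarge their translation machinery before they divide, and Myc and mTOR drive much of that growth. Since translation of TOP mRNAs can be set without a change in their amount, mRNA levels such as these do not measure ribosome output.

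The stretch around the transcription start is shown because the pyrimidine tract of TOP mRNAs begins there. The genes were picked by hand, with Rps27l and Rpl7l1 included because they are followed below. Where a gene had several windows, one with the hexamer CTTTCC was taken first. Each line gives the 30 bases centred on a start annotated by RefSeq on GRCm38.p6, 5' to 3' on the gene's strand, with the hexamer CTTTCC in capitals where present.
Rpl28, chr7:4792950-4792979, plus strand: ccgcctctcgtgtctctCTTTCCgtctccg
Rpl35a, chr16:33056467-33056496, plus strand: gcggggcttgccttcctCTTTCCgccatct
Rpl38, chr11:114668565-114668594, plus strand: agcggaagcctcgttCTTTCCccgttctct
Rpl15, chr14:18270972-18271001, minus strand: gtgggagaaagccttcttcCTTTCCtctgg
Rps27, chr3:90213634-90213663, minus strand: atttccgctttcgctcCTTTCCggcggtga
Rps27l, chr9:66946071-66946100, plus strand: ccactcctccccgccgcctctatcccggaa
Rpl7l1, chr17:46782642-46782671, minus strand: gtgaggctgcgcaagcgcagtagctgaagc
The Rps27 and Rps27l lines differ in this respect: Rps27 has the hexamer next to its start and Rps27l does not. A start window was found for 63 of the 83 members and 16431 of the 22056 genes. CTTTCC on the gene's strand lay within 50 bases of the start in 19 of the 63 members (30.2%), against 841 of all 16431 genes (5.12%). Most members thus had no such hexamer, so its absence from the Rps27l and Rpl7l1 lines does not set them apart. In the window of 300 bases, CCGGAAG, the core of ETS and GABPA sites, was present on either strand in 26 members (41.3%), against 2185 of all genes (13.3%). AAGATGG, the core of YY1 sites, was present on either strand in 10 members (15.9%), against 1197 of all genes (7.29%). A match of this kind describes the letters of the window and not binding or control.

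The members took 32.7% of UMIs in LN ICOS FC, 31.4% in LN ICOS WT, 38.8% in spleen ICOS FC and 38.6% in spleen ICOS WT. Single cells spread widely around these values: the 5th to 95th percentile of a cell's share ran from 16.6% to 48.5% in LN ICOS FC, from 14.6% to 47.1% in LN ICOS WT, from 24.5% to 49.6% in spleen ICOS FC and from 23.6% to 49.5% in spleen ICOS WT. UMIs were found for 81 members. Rpl3l and Rpl10l, tissue-restricted relatives of Rpl3 and Rpl10, had 0 UMIs in all 4 libraries, which allows at most 0.106 to 0.199 CPM, the level of 3 counts. Rpl39l, a relative of Rpl39 known from the testis, stood at 1.79 and 2.92 CPM in LN ICOS FC and ICOS WT and at 1.80 and 3.27 CPM in spleen ICOS FC and ICOS WT. The other 80 members reached 20 CPM, the minimum for the counts below, and 74 or 75 of them exceeded 1000 CPM in each library. Among the 10 with the highest mean levels were Rps24 (10421 CPM), Rps29 (8081 CPM), Rpl13 (7712 CPM), Rps16 (7662 CPM), Rps15a (7386 CPM), Rplp1 (7228 CPM), Rpl23 (6903 CPM), Rpsa (6811 CPM) and Rps20 (6509 CPM). Together the 10 held 21.8% to 22.5% of the members' UMIs, so no small set of genes carried the sum. These 3' tags are counted about once per transcript, so CPM compares genes without scaling by length.

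The first comparison asked whether ribosomal protein mRNAs differed between ICOS FC and ICOS WT cells at steady state. In the spleen their summed share was nearly the same, 38.8% in ICOS FC and 38.6% in ICOS WT, a log2 ratio of 0.0072 (95% interval 0.0060 to 0.0084). Its sign turned with the cells taken: the ratio was -0.0031 in cells with under 5% mitochondrial UMIs and -0.024 in cells with a Foxp3 UMI. The small subunit stood at 18.5% in ICOS FC and 18.4% in ICOS WT, and the large subunit at 20.2% in both. In these sums, fewer cells with a high level and less of the mRNA per cell cannot be told apart. A member was called higher or lower when a library reached 20 CPM, the ratio was at least 1.2-fold and its interval did not include equality. By that rule 1 of the 80 members was called in the spleen, beside 6.11% of the 5105 genes tested (3.19% lower), and the median log2 ratio was 0.02 over members and -0.02 over all genes.

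The called member was Rpl27, a protein of the large subunit (chr11:101442298-101445529, plus strand). It was at 743 CPM in spleen ICOS FC and 945 CPM in spleen ICOS WT, and at 1233 CPM in LN ICOS FC and 1213 CPM in LN ICOS WT. The spleen pair thus stood apart while the LN pair was close: the log2 ratio was -0.35 (-0.37 to -0.32) in the spleen and 0.02 in the LN. Rpl27 was below ICOS WT in each of the 6 spleen clusters compared, at log2 ratios of -0.41 to -0.30, and in the LN its sign was positive in 5 clusters and negative in 3. The next lowest log2 ratios in the spleen were those of Rpl13a (-0.19), which also has a role outside the ribosome in silencing inflammatory transcripts, Rpl41 (-0.16), the smallest ribosomal protein, Rps27 (-0.15) and Rpl31 (-0.14). The highest were those of Rps27l (0.14), Rps3 (0.10), Rpl18 (0.10), Rpl13 (0.09) and Rps2 (0.08). None of these 9 passed 1.2-fold. At this depth small ratios were still clear of counting error: the interval lay above equality for 43 members and below it for 28, beside 15.3% and 23.1% of all genes tested. The all-gene shares beside counts of intervals and of signs, here and below, are not matched for level. In each spleen library 74 members exceeded 1000 CPM, and intervals narrow as counts rise. Within clusters, 29 members had a positive spleen log2 ratio in all 6 clusters and 20 a negative one, beside 6.11% and 10.6% of the 4176 genes compared in the same way. By coding length the 29 were 0 short (under 330 bases), 15 middle and 14 long (at least 600 bases), and the 20 were 9 short, 10 middle and 1 long, out of 12 short, 45 middle and 23 long members in all, with class limits chosen after values had been seen. The positive group held Rpsa, Rps3, Rpl5, Rpl11 and Rps24 among others, and the negative group Rps27, Rps28, Rpl38, Rplp1 and Rpl13a. Clusters of 1 library are not replicates, so these counts describe how evenly the 2 spleen libraries differed.

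The second comparison put the same question to cells from the inflamed site. In the LN the summed share was 32.7% in ICOS FC and 31.4% in ICOS WT, a log2 ratio of 0.06 (0.0582 to 0.0617), and neither subunit set this alone: the small subunit stood at 15.2% against 14.7% and the large at 17.5% against 16.7%. Again 1 of 80 members was called, beside 18.5% of the 5506 genes tested (7.79% higher). No member passed 1.5-fold in either tissue, beside 2.16% of genes tested in the LN and 0.842% in the spleen. The median LN log2 ratio was 0.07 over members and -0.03 over all genes, and the interval lay above equality for 69 members and below it for 5, beside 20.4% and 27.7% of all genes. These shares are again not matched for level.

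The called member was Rps27l, a paralogue of Rps27 that p53 is known to activate. Rps27l was at 363 CPM in LN ICOS FC and 277 CPM in LN ICOS WT, and at 191 CPM in spleen ICOS FC and 173 CPM in spleen ICOS WT. Both LN libraries were above both spleen libraries, and within each tissue ICOS FC was above ICOS WT. Its log2 ratio of ICOS FC over ICOS WT was 0.39 (0.33 to 0.45) in the LN and 0.14 (0.08 to 0.20) in the spleen. After thinning every cell to 2000 UMIs the LN value was 0.25 and no longer reached 1.2-fold. It was positive in 7 of 8 LN clusters, from -0.02 to 0.78. High LN log2 ratios were also those of Rps2 (0.21), a small-subunit protein near the decoding site, Rps18 (0.16) and Rpl7l1 (0.14), and the lowest those of Rps27 (-0.08), Rpl13a (-0.07), Rps29 (-0.06), Rpl35 (-0.04) and Rps28 (-0.02).

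The LN ratio was uneven over the clusters that the authors deposited. In cluster 0, effector Treg-like by 11 of 12 markers, members took 25.9% of UMIs in ICOS FC and 22.8% in ICOS WT, a log2 ratio of 0.19. There the interval of 75 members lay above equality, beside 12.3% of all genes. In cluster 1, resting Treg-like by 7 of 9 markers, the shares were 43.0% in ICOS FC and 41.0% in ICOS WT. Cluster 3, unnamed and led by Gbp2b and Bcl2, went the other way, with 39.8% in ICOS FC and 41.1% in ICOS WT. There the interval of 33 members lay below equality, beside 5.15% of all genes. Cluster 4, with 29.3% in ICOS FC and 29.6% in ICOS WT, was also on the negative side, with a log2 ratio of -0.02. No member kept 1 sign in all 8 LN clusters, beside 1.63% of 4041 genes positive and 2.47% negative throughout. In the spleen the log2 ratio of the sum ran from -0.0011 to 0.07 over clusters 0 to 5.

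**Figure D1:**
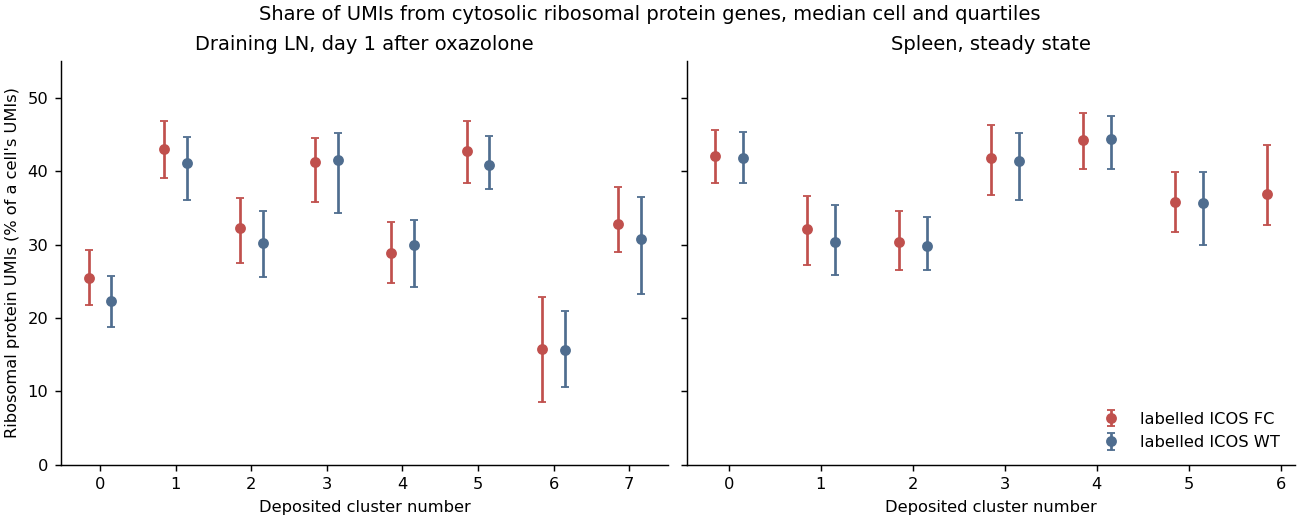
Share of a cell's UMIs (percent, vertical axis) taken by the 83 ribosomal protein genes, for each deposited cluster of the LN (left) and the spleen (right); points are the median cell and bars run between the quartiles, with ICOS FC left of ICOS WT. Medians in the LN range from near 16% in cluster 6 to over 40% in clusters 1, 3 and 5, while spleen clusters lie closer together; spleen cluster 6 of ICOS WT, with 47 cells, is left out.

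Within the LN the share was lowest in cluster 6, followed by the effector Treg-like cluster 0, and highest in clusters 1, 3 and 5. Cluster 6 of the LN stood at 16.9% in ICOS FC and 15.6% in ICOS WT, with only 1787.5 and 2022 UMIs per median cell and a median mitochondrial share of 7.37% and 7.19%, against 3.58% and 3.83% for all LN cells. Its leading genes included H2-Eb1, H2-Ab1, H2-Aa and H2-DMb2, of antigen presentation, and 4 of 5 measured B cell markers were higher there than in the remaining cells. Of the other lists, 7 of 8 resting Treg, 2 of 12 effector Treg and 3 of 6 Treg markers were higher. The same held for 5 of 6 cycling, 1 of 1 myeloid and 0 of 5 CD8 T and NK markers. The part of depth, mitochondrial share and these markers in the low share was not tested. By the 1.2-fold rule 77 members were lower there in both libraries, beside 8.41% of genes in ICOS FC and 7.27% in ICOS WT. In LN cluster 0, 73 members were lower in ICOS FC and 78 in ICOS WT, beside 16.2% and 15.4% of genes. In resting Treg-like LN cluster 1, 68 and 69 were higher, beside 9.34% and 7.67%. In LN cluster 3, 61 and 75 were higher, beside 5.52% and 5.58%. In LN cluster 5, interferon response-like by 9 of 9 markers and at 42.6% and 41.7%, 56 and 66 were higher, beside 9.75% and 9.02%. Follicular Treg-like LN cluster 2 and LN cluster 7, led by CD8 T, NK and TCR-activated genes, stayed close to their libraries, at 32.8% and 31.6% in cluster 2 and at 33.5% and 30.9% in cluster 7.

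The spleen clusters covered a narrower range, again with effector Treg-like cells at the low end. Effector Treg-like cluster 2 stood at 31.1% in ICOS FC and 30.6% in ICOS WT, where 60 and 62 members were lower, beside 7.35% and 7.68% of genes. Follicular Treg-like cluster 1 stood at 33.5% and 32.0%, with 38 and 52 members lower, beside 9.55% and 8.93%. Resting Treg-like cluster 3 (42.5% and 41.8%), cluster 0 (42.4% and 42.1%) and the Foxp3-low cluster 4 (44.2% and 44.3%) were at the upper end. In cluster 4, 27 and 29 members were higher, beside 7.21% and 6.93% of genes. These contrasts describe groups of cells that were made from the same expression values, so they are no test. Over clusters a member's highest level was a median 2.51-fold its lowest in LN ICOS FC, 2.72-fold in LN ICOS WT, 1.45-fold in spleen ICOS FC and 1.49-fold in spleen ICOS WT. Rps27l had the widest range in the LN (4.94-fold in ICOS FC and 4.46-fold in ICOS WT), and Rpl4, a large-subunit protein with a long coding sequence, the narrowest (1.56-fold and 1.70-fold).

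Cells from the challenged LN had a smaller share of ribosomal protein mRNA than cells from the resting spleen under both labels. The log2 ratio of LN over spleen was -0.24 in ICOS FC (32.7% in the LN and 38.8% in the spleen) and -0.30 in ICOS WT (31.4% and 38.6%). The ratio was -0.28 and -0.32 for the small subunit and -0.21 and -0.27 for the large. The tables were made separately, 1 per tissue, and tissue, challenge and library cannot be told apart. Under both labels 57 of 80 members were called in the same direction, 10 higher and 47 lower in the LN, beside 33.9% of 5662 genes in either direction, 26.4% higher and 7.51% lower. That split moved with the scaling: it was 4 higher and 57 lower against a library total without ribosomal protein and mitochondrial genes, and 6 higher and 55 lower with TMM factors. These scalings lowered the median of all genes by 0.16 and 0.12 in ICOS FC and by 0.18 and 0.14 in ICOS WT on the log2 scale. Relative to the median of all genes, the median member stood at -0.47 in ICOS FC and -0.53 in ICOS WT.

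Of the 6 members past 1.5-fold under both labels, beside 10.4% of genes (9.22% higher and 1.22% lower), the lower 3 are core components of the ribosome. Rpl12, which lies at the base of the stalk, was at 4397 CPM in LN ICOS FC and 4167 CPM in LN ICOS WT, against 6872 CPM in spleen ICOS FC and 6778 CPM in spleen ICOS WT. Rps7, a small-subunit protein, was at 4331 and 4205 CPM in LN ICOS FC and ICOS WT, against 6642 and 6552 CPM in spleen ICOS FC and ICOS WT. Rpl17, of the exit tunnel, was at 4713 and 4528 CPM in LN ICOS FC and ICOS WT, against 7092 and 6940 CPM in spleen ICOS FC and ICOS WT. In ICOS FC and ICOS WT the log2 ratios of LN over spleen were -0.64 and -0.70 for Rpl12. They were -0.62 and -0.64 for Rps7 and -0.59 and -0.62 for Rpl17. The most abundant members did not all move one way: Rps24 had log2 ratios of -0.55 in both labels, Rpl13 of -0.56 in both and Rps16 of -0.58 and -0.59, while Rplp1 had -0.16 and -0.33 and Rps29 was higher in the LN at 0.48 and 0.43.

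The higher 3 were Rps27l, Rpl38 and Rps28. Rpl38, a large-subunit protein known for a role in Hox mRNA translation in the mouse embryo, was at 5234 CPM in LN ICOS FC and 5160 CPM in LN ICOS WT, against 3154 CPM in spleen ICOS FC and 3242 CPM in spleen ICOS WT. Rps28, a small-subunit protein near the mRNA exit, was at 5863 and 5939 CPM in LN ICOS FC and ICOS WT, against 3657 and 3926 CPM in spleen ICOS FC and ICOS WT. In ICOS FC and ICOS WT the log2 ratios were 0.73 and 0.67 for Rpl38 and 0.68 and 0.60 for Rps28. The other 7 called higher were Rps21, Rps27, Rps29, Rpl27, Rpl37, Rpl39 and Rpl41.

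The stalk proteins, which recruit the translation GTPases, differed among themselves. Rplp0, their anchor, was at 4962 and 4583 CPM in LN ICOS FC and ICOS WT, against 6437 and 6369 CPM in spleen ICOS FC and ICOS WT, with log2 ratios of LN over spleen of -0.38 and -0.47. Rplp1 had ratios of -0.16 and -0.33 and Rplp2 of -0.10 and -0.20, so the acidic partners stood nearer to equality than their anchor. Their coding sequences have 342 and 345 bases, against 951 for Rplp0, and this ratio went with coding length across all members, as given below. Rpl5 and Rpl11, which with 5S RNA form the particle that binds Mdm2 when ribosome assembly is disturbed, had ratios of -0.56 and -0.66 and of -0.38 and -0.42. Rpsa, also known as the laminin receptor, had ratios of -0.37 and -0.36. Rps27a, made as a fusion with ubiquitin, had ratios of -0.34 and -0.38.

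Of the 10 members called higher in the LN, 9 had coding sequences under 330 bases, the exception being Rpl27 with 408. Rpl41 is the extreme case and is shown for its size (chr10:128548114-128549153 on GRCm38, minus strand, GENCODE M21, stop codon left out).
Rpl41 coding sequence: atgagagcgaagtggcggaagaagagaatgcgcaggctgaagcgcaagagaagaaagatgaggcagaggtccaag
The line is only 75 bases long. Rpl41 was at 7373 and 7200 CPM in LN ICOS FC and ICOS WT, against 4599 and 5125 CPM in spleen ICOS FC and ICOS WT. All 12 members with a coding sequence under 330 bases had positive log2 ratios of LN over spleen under both labels (median 0.51 in ICOS FC and 0.38 in ICOS WT), although Rpl36a and, in ICOS WT, Rpl36 turned negative against the total without ribosomal protein and mitochondrial genes, and both did in ICOS WT with TMM factors. Of the 23 members of at least 600 bases, 22 had negative ratios (median -0.41 and -0.51), the exception being Rpl7l1. The 45 in between had medians of -0.36 and -0.41. These length classes were chosen after the values were seen. Genes that are no members showed part of the same order: 233 short ones had median log2 ratios of 0.35 in ICOS FC and 0.32 in ICOS WT, and 4565 long ones of 0.11 and 0.12. By sign, 189 and 191 of these 233 short genes were positive, and 1731 and 1581 of the 4565 long genes negative. Across the 80 members Spearman's rho between coding length and the LN over spleen ratio was -0.65 under each label, and across other genes it was -0.12 and -0.07. With transcript length in place of coding length it was -0.50 under each label over members, and -0.14 and -0.07 over other genes. Genes are not independent replicates, and libraries differed in depth as given above, whose part was not tested.

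**Figure D2:**
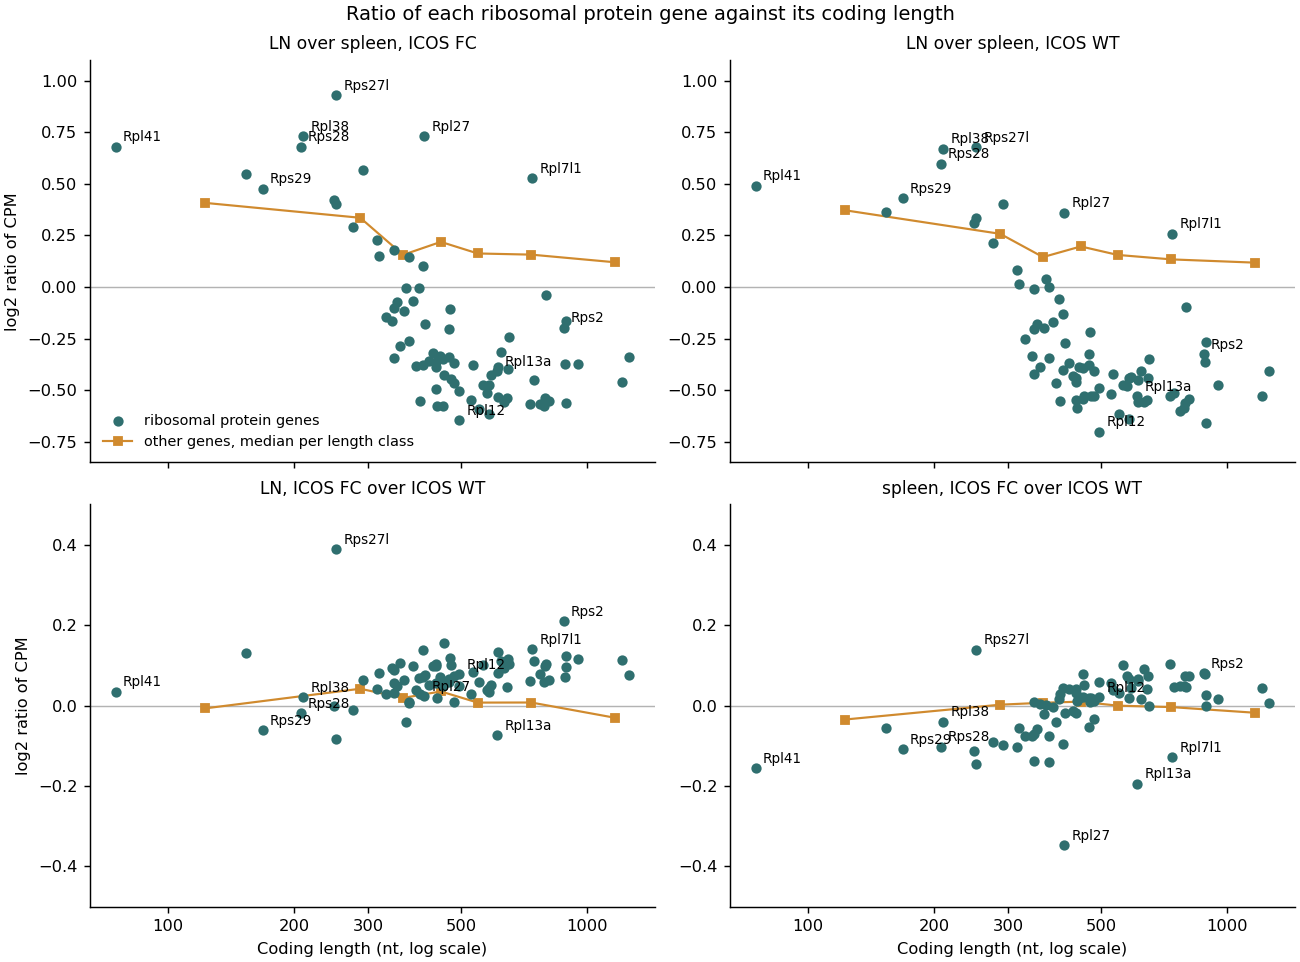
Log2 ratio (vertical axis) against coding length in bases (log axis) for the 80 members (points) in 4 panels, LN over spleen and ICOS FC over ICOS WT; squares are the medians of other genes per length class. Short members lie above equality in both LN over spleen panels, and 11 of the 12 lie below it in the spleen panel of ICOS FC over ICOS WT.

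Members also differed by length class between ICOS FC and ICOS WT. Of the 12 short members, 11 had negative log2 ratios of ICOS FC over ICOS WT in the spleen (median -0.10, Rps27l being the exception), and of the 23 long members 19 had positive ones (median 0.05). In the LN the medians were 0.03 for short and 0.10 for long members. Genes outside the family had the opposite order: in spleen, short ones had a median of -0.016 and long ones of -0.026, and in LN, 0.021 and -0.051. By sign, 132 of 233 short ones were negative in the spleen, and 1863 of 4565 long ones positive. As a description across genes, which share their libraries, Spearman's rho of the spleen ratio with coding length was 0.63 over 80 members and -0.14 over 5542 other genes. For the LN ratio it was 0.42 over members and -0.23 over 5543 other genes. With transcript length the values over members were weaker, at 0.36 for the spleen ratio and 0.23 for the LN ratio. Over other genes they were -0.13 and -0.24. The comparisons of tissue and of label share the spleen libraries, so these patterns are not independent of each other. UMIs of short members divided by those of long members gave 0.888 in LN ICOS FC, 0.944 in LN ICOS WT, 0.469 in spleen ICOS FC and 0.522 in spleen ICOS WT. Over clusters this quotient ran from 0.776 to 0.959 in LN ICOS FC, from 0.744 to 1.00 in LN ICOS WT, from 0.423 to 0.490 in spleen ICOS FC and from 0.473 to 0.575 in spleen ICOS WT. Every LN cluster was therefore above every spleen cluster. Rps27rt, a gene outside the rule whose coding sequence is identical to that of Rps27, was at 171 and 174 CPM in LN ICOS FC and ICOS WT, against 85.4 and 116 CPM in spleen ICOS FC and ICOS WT. Tags of such copies cannot be assigned with certainty, so Rps27rt is no further case of the length pattern.

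**Figure D3:**
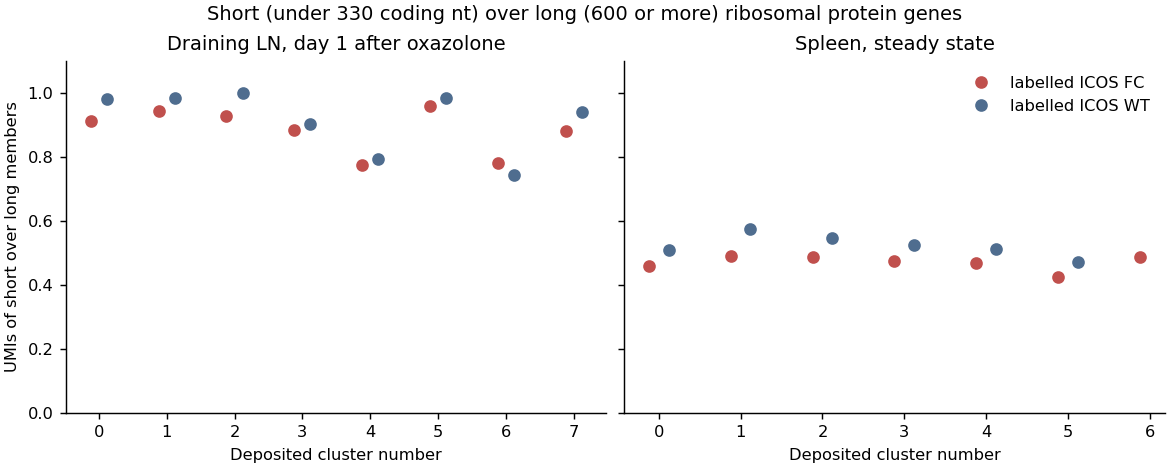
UMIs of the 12 short members divided by UMIs of the 23 long members (vertical axis), 1 point per deposited cluster, LN left of spleen and ICOS FC left of ICOS WT. LN clusters lie between 0.744 and 1.00 and spleen clusters between 0.423 and 0.575, without overlap.

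Rps27 and its paralogue Rps27l moved apart furthest in LN cluster 4 and, among spleen clusters, in cluster 5. Their coding sequences are shown because the 2 genes code for near-identical proteins from mRNAs that differ enough to be counted apart. Both are 252 bases long without the stop codon (GRCm38, GENCODE M21), and capitals mark the 60 positions at which they differ, which leaves 76.2% identity.
Rps27, chr3:90212671-90213651, minus strand: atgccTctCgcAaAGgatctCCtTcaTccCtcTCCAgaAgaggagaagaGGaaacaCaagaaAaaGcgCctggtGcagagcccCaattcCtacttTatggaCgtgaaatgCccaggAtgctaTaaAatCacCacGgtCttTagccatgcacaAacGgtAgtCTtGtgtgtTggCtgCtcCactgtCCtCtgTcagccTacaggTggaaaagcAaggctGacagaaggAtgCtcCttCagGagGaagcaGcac
Rps27l, chr9:66946086-66949512, plus strand: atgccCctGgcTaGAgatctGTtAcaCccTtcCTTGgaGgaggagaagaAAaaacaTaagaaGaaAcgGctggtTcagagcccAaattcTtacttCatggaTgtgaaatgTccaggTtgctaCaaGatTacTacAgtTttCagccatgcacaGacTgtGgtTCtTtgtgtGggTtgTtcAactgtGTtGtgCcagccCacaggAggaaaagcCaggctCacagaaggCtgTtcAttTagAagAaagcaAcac
The differences are spread along the whole length. LN cluster 4 is biosynthetic blast-like: all 9 markers of that list, among them Myc, Ncl and Npm1, were higher there than in the remaining cells, though none was among its 10 leading genes, and its median cell held 12166 UMIs in ICOS FC and 13388.5 in ICOS WT, of which 3721 and 4082 came from members. It made up 10.5% of LN ICOS FC cells and 7.27% of LN ICOS WT cells. Rps27l reached 701 CPM in ICOS FC and 588 CPM in ICOS WT in that cluster, while Rps27 was at 4425 and 4880 CPM. Rps27l was 13.7% of the pair's UMIs in ICOS FC (exact binomial interval 13.2% to 14.2%) and 10.8% in ICOS WT (10.2% to 11.3%), against 4.86% and 3.56% in the whole libraries. Interferon response-like LN cluster 5 was at the other end with 1.17% and 1.09%, next to resting Treg-like LN cluster 1 with 1.40% and 1.44%. Between these ends, effector Treg-like LN cluster 0 was at 6.37% and 5.55%. LN cluster 6 was at 6.14% and 4.77%, on only 40 and 36 Rps27l UMIs.

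A spleen cluster with activation markers had a similar pattern. Spleen cluster 5, TCR-activated-like by 6 of 8 markers and with all 9 blast markers above the remaining cells, held Rps27l at 364 CPM in ICOS FC and 308 CPM in ICOS WT, and Rps27 at 4007 and 4345 CPM. Of the other lists, 5 of 6 cycling, 3 of 4 B cell, 0 of 6 Treg and 0 of 4 CD8 T and NK markers were higher there. H2-Aa, a B cell marker, was among its 10 leading genes, and the part of these markers was not tested. The Rps27l share of the pair was 8.34% in ICOS FC and 6.62% in ICOS WT, the highest of the spleen clusters in each library, and the lowest was 1.99% and 1.85% in cluster 4. Without spleen cluster 5 and LN cluster 4 the log2 ratio of Rps27l between LN and spleen was 0.61 in ICOS FC and 0.42 in ICOS WT, against 0.93 and 0.68 with them, and the LN ratio of ICOS FC over ICOS WT was 0.32, against 0.39.

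**Figure D4:**
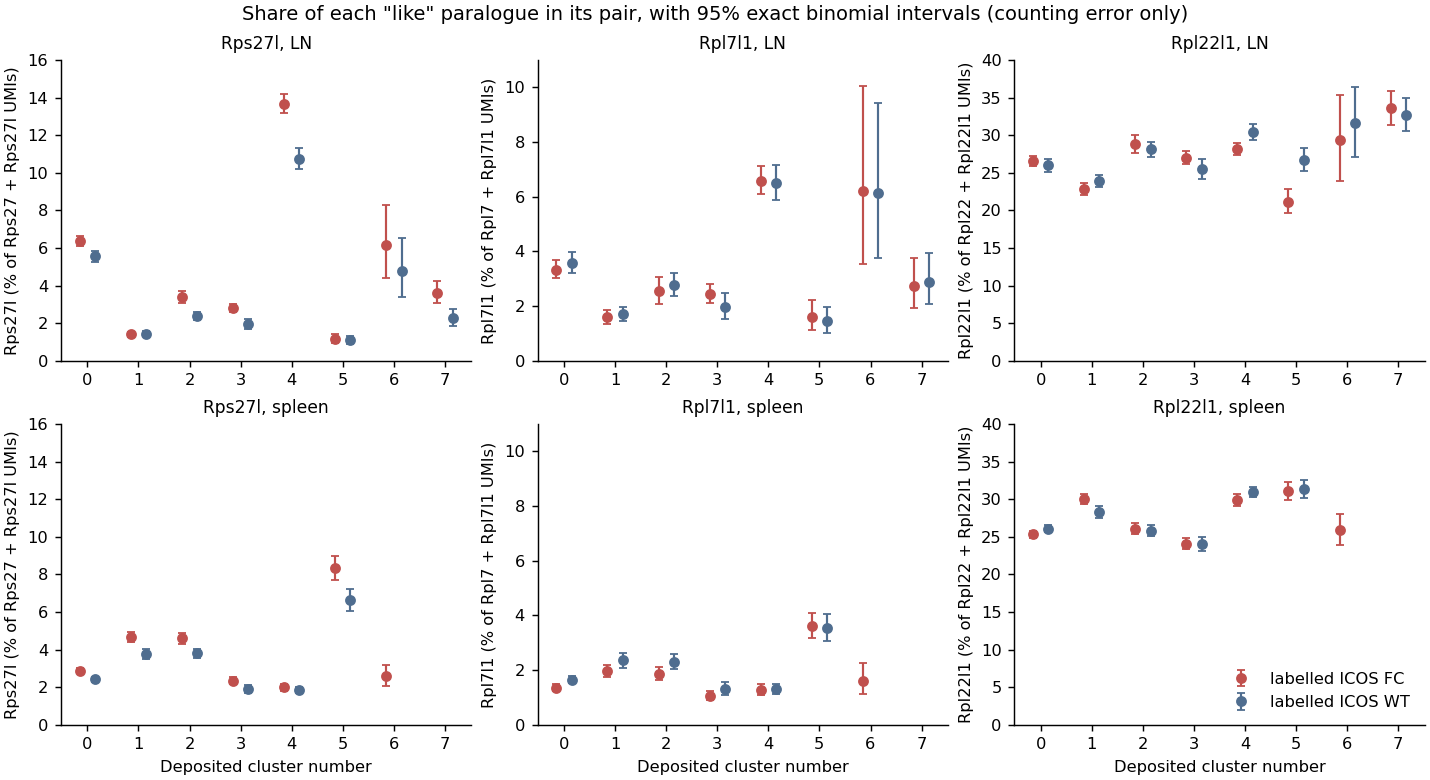
Share of a pair's UMIs (percent) that came from the paralogue, for Rps27l with Rps27, Rpl7l1 with Rpl7 and Rpl22l1 with Rpl22, per cluster of the LN (top) and the spleen (bottom), ICOS FC left of ICOS WT; bars are exact binomial intervals at 95%. Rps27l peaks at 13.7% and 10.8% in LN cluster 4 and at 8.34% and 6.62% in spleen cluster 5.

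Other paralogue pairs followed their own courses. Rpl7l1, a relative of Rpl7 with a part in ribosome assembly, was at 167 CPM in ICOS FC and 168 CPM in ICOS WT in LN cluster 4, where it was 6.59% and 6.50% of the pair, and at 1.59% and 1.69% in LN cluster 1. In LN cluster 6 it was 6.22% and 6.15% of the pair, on only 15 and 19 Rpl7l1 UMIs. In spleen cluster 5 it was 3.61% and 3.53%, against 1.60% and 1.83% in the whole spleen libraries. Rpl22l1, whose partner Rpl22 is needed for αβ T cell development in the mouse, was steadier at 26.4% and 26.9% of its pair in LN ICOS FC and ICOS WT and at 27.1% and 27.3% in spleen ICOS FC and ICOS WT. It reached 33.6% and 32.7% in LN cluster 7 and was lowest, at 21.2%, in LN cluster 5 of ICOS FC. In ICOS WT, LN cluster 5 was at 26.8%, and the lowest LN share was 24.0% in cluster 1. Rpl36al, which lies outside the rule for members and shares 87.7% of the coding bases of Rpl36a, was 32.0% and 29.6% of its pair in LN cluster 4 and 23.5% and 22.9% in the whole LN libraries. Effector Treg-like LN cluster 0 was at 27.5% and 30.2%, so in ICOS WT it lay above cluster 4. Rps4l is not in the table.

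Seen against the median member of each cluster, a few genes departed in several clusters. In LN cluster 4 the largest positive departures on the log2 scale were those of Rps27l (1.51 in ICOS FC and 1.48 in ICOS WT) and Rpl7l1 (1.49 and 1.48). Rps27 (-0.65 in both libraries) and Rps24 (-0.43 and -0.47) departed most in the other direction. Spleen cluster 5 shared the paralogues, with Rpl7l1 at 1.36 and 1.08 and Rps27l at 1.11 and 0.98, and added Rps2 at 0.69 and 0.68. Rps2 was at 6685 CPM in ICOS FC and 6337 CPM in ICOS WT in that cluster, against 4408 and 4165 CPM in the remaining cells. LN clusters 1 and 5 had the reverse, with Rps27l at -1.83 and -1.41 in cluster 1 and at -1.74 and -1.52 in cluster 5. In LN cluster 6, Rpl7l1 (1.01 and 0.94, on 15 and 19 UMIs) and Rpl4 (0.88 and 1.02) were furthest above the median member. Rpl39 (-0.68 and -0.60) and Rpl10 (-0.56 and -0.84) were furthest below it there. In Foxp3-low spleen cluster 4, Rps27l (-0.75 and -0.58) and Rpl7l1 (-0.37 and -0.58) stood below the median member, and Rps29 (0.40 and 0.35) was furthest above it. Rps29, a zinc-binding small-subunit protein, was at 9387 CPM in ICOS FC and 9743 CPM in ICOS WT, against 6193 and 6600 CPM in the remaining cells. As a group, members took a smaller share in LN cluster 4 and spleen cluster 5 than in the remaining cells of the same library. The log2 ratio of the sum was -0.20 in ICOS FC and -0.10 in ICOS WT for LN cluster 4, and -0.11 and -0.10 for spleen cluster 5. The median member of LN cluster 4 stood at -0.16 and -0.07, beside 0.10 and 0.05 over all genes. By the 1.2-fold rule 7 were higher and 26 lower in LN cluster 4 of ICOS FC, beside 39.7% and 29.8% of genes, and 13 were higher and 15 lower in ICOS WT, beside 37.4% and 32% of genes. In spleen cluster 5, 8 were higher and 11 lower in ICOS FC, beside 31.7% and 23.3%, and 7 higher and 9 lower in ICOS WT, beside 30.8% and 23%. These shares are per UMI: the cells of LN cluster 4 held more member UMIs each than those of any other LN cluster.

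**Figure D5:**
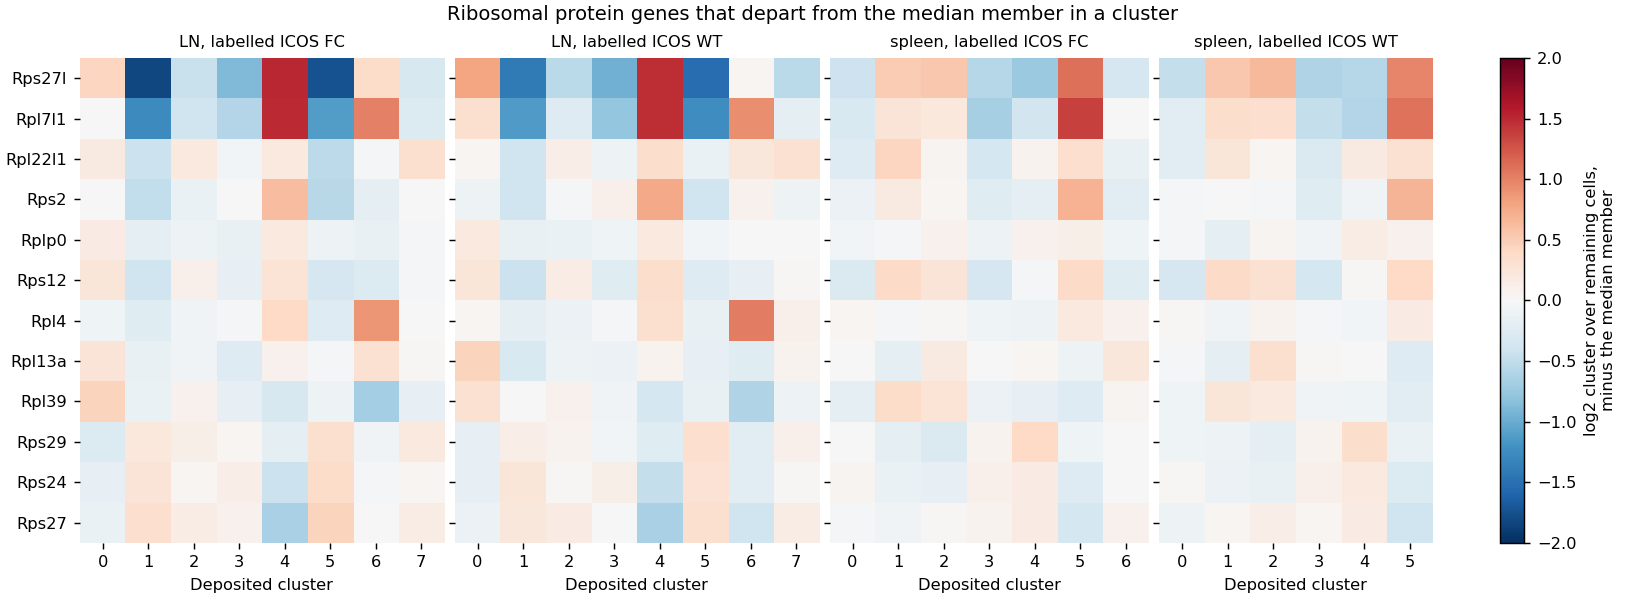
Log2 ratio of a cluster over the remaining cells of its library, minus that of the median member, for 12 members (rows) in each cluster and library (columns, LN left of spleen, ICOS FC left of ICOS WT). Rps27l and Rpl7l1 stand above the median member in LN cluster 4 and spleen cluster 5 and below it in LN clusters 1 and 5. Rpl7l1 also stands above it in LN cluster 6, and Rps27l in LN cluster 0 and spleen clusters 1 and 2.

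Other genes of the translation machinery were read from lists chosen with earlier results of these data known. The mitochondrial ribosomal proteins, 78 genes for the separate ribosome of that organelle, did not follow the cytosolic ones. Of 73 at the minimum level, 35 were higher and 0 lower in the LN than in the spleen in ICOS FC, beside 36.4% and 14.6% of genes. In ICOS WT 29 were higher and 1 lower, beside 34.5% and 10.2%. Their median log2 ratios were 0.25 and 0.16, beside 0.13 over all genes under each label, so in ICOS WT these genes stood close to all genes. In LN cluster 4 they were higher for 66 of 75 genes in ICOS FC and 66 of 76 in ICOS WT, beside 39.7% and 37.4% of all genes, with medians of 0.75 and 0.78, beside 0.10 and 0.05 over all genes. In spleen cluster 5, 54 and 51 of 74 were higher, beside 31.7% and 30.8% of all genes. Between labels, 7 of 73 were higher in LN ICOS FC, beside 7.79% of all genes, and 0 of 72 were called in the spleen, beside 6.11%.

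The translation factors and other TOP genes, 28 in all, had 6 higher and 10 lower in the LN in ICOS FC, beside 36.4% and 14.6% of all genes, and 4 higher and 12 lower in ICOS WT, beside 34.5% and 10.2%. Eef1a1, the elongation factor that delivers tRNA, was at 5871 and 5695 CPM in LN ICOS FC and ICOS WT, against 7639 and 7568 CPM in spleen ICOS FC and ICOS WT. Rack1, a scaffold on the small subunit, was at 2374 and 2203 CPM in the LN, against 3436 and 3320 CPM in the spleen, and Tpt1, a classic TOP mRNA, at 9513 and 9252 CPM, against 14478 and 13779 CPM. The log2 ratios of LN over spleen were -0.38 and -0.41 for Eef1a1, -0.53 and -0.59 for Rack1 and -0.61 and -0.57 for Tpt1, on the side of most members. Npm1, a nucleolar assembly factor on both this list and the blast marker list, was at 3400 CPM in ICOS FC and 3147 CPM in ICOS WT in LN cluster 4.

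Among 21 genes of growth control, 13 were at the minimum level, of which 4 were higher and 3 lower in the LN in ICOS FC and 3 and 3 in ICOS WT, beside the same shares of all genes (36.4% and 14.6%, 34.5% and 10.2%). Rps6, itself a member, is on this list. Myc was at 92.5 CPM in LN ICOS FC and 62.3 CPM in LN ICOS WT, against 39.3 CPM in spleen ICOS FC and 43.3 CPM in spleen ICOS WT. LN ICOS FC was thus above the other libraries, with a log2 ratio over LN ICOS WT of 0.57 (0.45 to 0.69). Larp1, the TOP mRNA-binding protein, was at 191 CPM in ICOS FC and 190 CPM in ICOS WT in LN cluster 4, against 114 and 99.6 CPM in the whole LN libraries. Mxd4, a Myc antagonist, had log2 ratios of cluster 4 over the remaining LN cells of -2.05 and -2.46. Of 10 p53 target genes, Rps27l among them, 5 were at the minimum level. Bax, a promoter of cell death, was higher in LN cluster 4 together with Rps27l, at 303 CPM in ICOS FC and 275 CPM in ICOS WT, with log2 ratios of 0.96 and 1.05, while Mdm2, the p53 ligase, stood at -0.29 and -0.20, Ccng1 at -0.35 and -0.27 and Trp53inp1 at -1.46 and -1.95. The list therefore did not move in 1 direction in that cluster.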

How the data were processed

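The tools named in the submitters' processing notes are Cell Ranger 4.0.0, R 3.6.1 and Seurat 3.0, and the build GRCm38.p6 (mm10), with no roles. What annotation was used, and whether doublets were removed, they do not say. The authors deposited 1 table per tissue, in which a value is a natural log: a gene's UMIs were scaled to 10000 per cell and 1 was added before the log. The authors also deposited UMI counts and the mitochondrial percent per cell, with library names and cluster numbers. Cells named KO were read as ICOS FC and cells named Control as ICOS WT, from the words alone.

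UMIs were recovered by inverting the log with each cell's total: 100% of the 8798056 LN and 17846401 spleen values above 0 were whole within 0.001. UMIs were summed per library or cluster (at least 50 cells) and divided by the total, as CPM. The lowest cell held 500 UMIs. No doublet step was added. Ratios carry exact conditional Poisson intervals at 95%, and calls needed 20 CPM, 1.2-fold and an interval clear of equality, since 1 library per group permits no count model; the ratio code was tested on simulated data. Named genes were the 10 most abundant members, the stalk, Rpsa, Rps27a, Rpl5, Rpl11, paralogue pairs, the 5 highest and 5 lowest per comparison and the 3 most departing per cluster. Members and lists were chosen with earlier results of these data known. A few genes that these rules name are not reported here. Other genes named in a sentence were chosen after their values were seen. Alternatives were scaling, cell filters, thinning, thresholds and weighting. Motifs came from RefSeq windows, coding lengths from GENCODE M21. Python 3.11.15, numpy 2.4.6, scipy 1.17.1, pandas 2.3.3 and matplotlib 3.10.9 were used.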

Additional observations from a re-analysis of the deposited data

How the results depend on the processing

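The summed log2 ratio of LN over spleen stayed negative under every alternative run. In ICOS FC and ICOS WT it was -0.40 and -0.48 against a library total without ribosomal protein and mitochondrial genes, -0.37 and -0.43 with TMM factors, -0.22 and -0.29 as a mean over cells, -0.21 and -0.28 after thinning to 2000 UMIs, -0.26 and -0.31 in cells under 5% mitochondrial UMIs, -0.23 and -0.32 in cells with a Foxp3 UMI, -0.21 and -0.28 without the 5% of cells with most UMIs, -0.21 and -0.24 without spleen cluster 4 and LN clusters 6 and 7, and -0.21 and -0.29 without spleen cluster 5 and LN cluster 4, an alternative chosen after seeing the data. Under the same 9 settings in that order the LN ratio of ICOS FC over ICOS WT was 0.083, 0.10, 0.085, 0.087, 0.051, 0.057, 0.076, 0.052 and 0.084. With clusters weighted equally it was 0.053, and without shared barcodes, also chosen after seeing the data, 0.067. The spleen ratio was 0.0094, 0.034, 0.015, 0.018, -0.0031, -0.024, 0.0089 and 0.019 under the first 8 settings and 0.018 with clusters weighted equally; its sign thus depended on the cells taken, and the cause was not tested.

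Calls between labels rested on single genes: without a minimum level they were 2 in the spleen and 2 in the LN, at 1.5-fold 0 and 0, and after thinning 0 in the LN. At 1.5-fold the LN over spleen calls were 6. Cluster ratios kept their sign in 27 of 29 cases after thinning and as a mean over cells, and in 29 of 29 without the ribosomal total, and paralogue ratios in 30 to 32 of 32. The log2 ratio of LN over spleen for short members, minus that for long members, was 0.56 in ICOS FC and 0.49 in ICOS WT with limits of 400 and 500 bases, and 0.92 and 0.85 with 330 and 600. No paired analysis was possible because each group is 1 library. Rpl39l was too low to compare, and library, mouse and batch cannot be told apart.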

Other observations

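Ribosomal proteins whose gene symbols fall outside the naming rule gave a mixed picture. Fau, a fusion of a ubiquitin-like protein with a small-subunit protein, was at 5824 CPM in LN ICOS FC and 6126 CPM in LN ICOS WT, against 7518 CPM in spleen ICOS FC and 7650 CPM in spleen ICOS WT. Its log2 ratio of LN over spleen was -0.37 and -0.32. Rpl36al was at 610 CPM in LN ICOS FC and 560.0 CPM in LN ICOS WT, against 302 CPM in spleen ICOS FC and 407 CPM in spleen ICOS WT, so it lay above its spleen level where Fau lay below. Its spleen ratio of ICOS FC over ICOS WT was -0.43, beside -0.35 for Rpl27 and -0.44 for Rps27rt, and none of these values has a replicate.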
